A study of Mus musculus with 6 samples.

Results

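Normal mRNA decay in control MEFs was followed with 3 of the 6 arrays of the series, 1 each at 0, 6 and 12 h of actinomycin D (Act. D). MEFs are fibroblasts grown from mouse embryos. The control MEFs were primary cells that carry floxed CNOT3 alleles, were infected with mock retrovirus and were kept in puromycin for 2 days. Their labels give the genotype as wild type. The other 3 arrays came from MEFs of the same kind infected with Cre retrovirus (CNOT3-depleted MEFs) at the same times, and all cells grew in DMEM with 10% fetal bovine serum. The members were the probe sets with a signal of at least 200 in control MEFs at 0 h, which were 15809 of 45037. The 1 gene annotated for 14294 of these probe sets gave 8741 named genes of 18193 on the array.

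Act. D intercalates into DNA and blocks transcription, so that after it is added each mRNA is lost at its own rate without being replaced. In mammalian cells the poly(A) tail is usually shortened first, in large part by the CCR4-NOT deadenylase, and the body of the mRNA is then degraded after decapping or by the exosome. Transcripts of signalling feedback regulators and transcription factors are known as short-lived, and those of structural, ribosomal and metabolic proteins as long-lived.

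The fibroblast label was met by its markers. All 14 fibroblast markers had a 0 h signal of at least 200, with a median of 8432 and the highest signal, 29519, for Vim. Of the endothelial markers 0 of 6 reached 200. In bulk RNA, few cells of a type and little RNA per cell cannot be told apart. The leukocyte, epithelial, skeletal muscle and neural lists had 2 members each at 200 or more, the brightest of each being Lyz2 at 1157, Krt19 at 495, Acta1 at 3337 and Tubb3 at 549. The summed signal of the 7 leukocyte markers was 2038, 3542 and 4243 at 0, 6 and 12 h, and its part in any result was not tested.

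Every value is a percentage of the 0 h signal, read within arrays that the authors had brought to nearly the same trimmed mean. It is therefore relative to the RNA that remained, and it can exceed 100%. The brightest 1% of probe sets held 24.5% of the signal at 0 h, 31.0% at 6 h and 34.1% at 12 h. Cytosolic ribosomal protein mRNAs, known as long-lived, kept a median of 152% at 6 h and 179% at 12 h, and for that reason values are also given relative to them where stated. Paired percentages below are for 6 h and 12 h in that order, and sets of 3 signals are for 0, 6 and 12 h. Signals below 15.04 at 6 h or 17.97 at 12 h, the 25th percentiles of those arrays, are near background, where only a bound on the percentage left can be given. There was 1 array per time, so no difference has an error or a test, the number of arrays limits the precision, and the single 0 h array is the denominator of both ratios.

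The median member kept 89.1% of its signal at 6 h and 71.4% at 12 h. The middle 50% of members lay between 42.9% and 135% at 6 h and between 29.4% and 145% at 12 h. Fast probe sets, defined by at most 25% left at both times, numbered 1975 (12.5% of members), and slow probe sets, defined by at least 100% left at both times, numbered 5812 (36.8%). The other 8022 (50.7%) met neither rule. Fast probe sets kept a median of 13.9% and 11.2%, against 145% and 167% in slow probe sets, which are the values that chose them. Among named genes 1090 (12.5%) were fast and 3119 (35.7%) were slow. The class limits depend on the scaling of the arrays. Divided by the ribosomal protein signals, the same probe sets gave 3424 fast and 1614 slow.

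**Figure D1:**
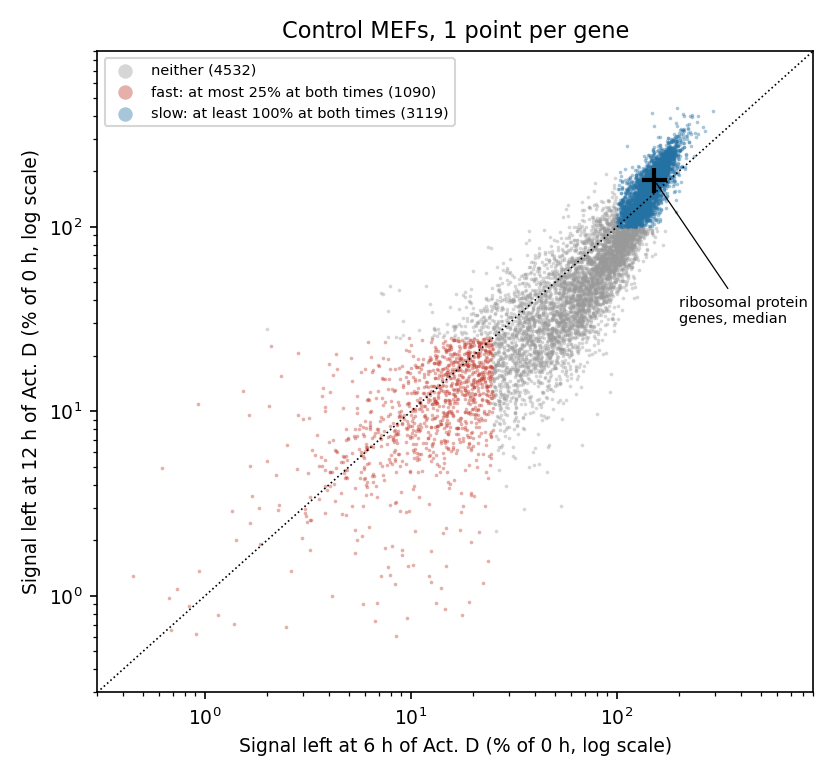
Percentage of the 0 h signal left at 6 h (x, log scale) and 12 h (y, log scale) of Act. D in control MEFs, 1 point for each of 8741 named genes, with 1 array per time and signals near background drawn as measured. The 1090 fast genes lie at the lower left, the 3119 slow genes at the upper right around the median of the ribosomal protein genes (cross, 152% and 179%), and the dotted line marks equal values at both times.

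Relative to the ribosomal protein genes, the median fast gene changed by -3.40 (log2) in the first 6 h and by -0.45 in the second 6 h. If loss were exponential and the ribosomal protein mRNAs unchanged, the first interval would correspond to a half-life of 1.76 h. The median over all named genes was -0.79 and then -0.38, and that of the slow genes -0.07 and -0.04. The changes of both classes, and the half-life, are limited by the rules that chose the genes. At 12 h the signal of 90 of the 1090 fast genes was near background.

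The share of fast and slow probe sets varied with the 0 h signal. From 200 to 400 the fast share was 14.3% and the slow share 24.5%. At 6400 or more these shares were 1.20% and 82.7%. Signals of different probe sets also depend on the probes, so this order is one of brightness and not of mRNA copies. Just inside the minimum, between 200 and 210, the median left was 63.7% and 62.0% in 311 probe sets, and just outside it, between 190 and 200, it was 67.7% and 67.0% in 338.

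**Figure D2:**
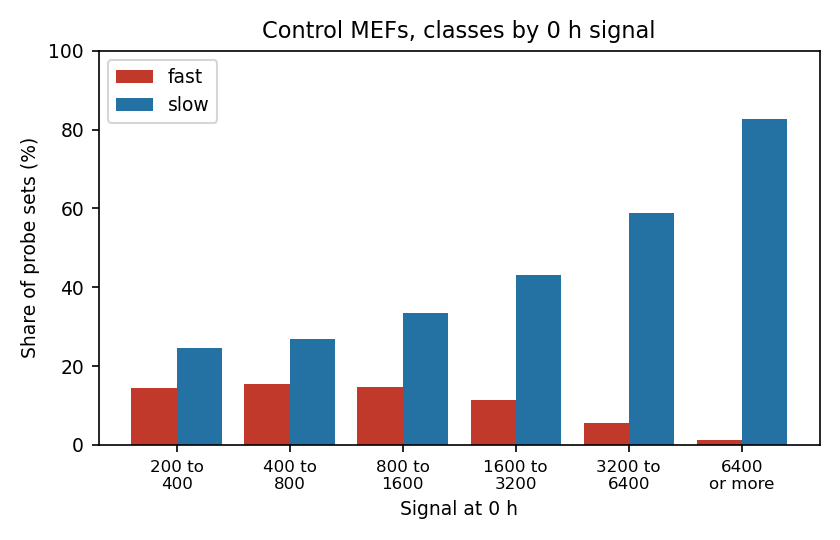
Share of probe sets (y, %) that were fast or slow in control MEFs by their signal at 0 h (x, MAS5 signal). The slow share goes from 24.5% in the dimmest bin to 82.7% in the brightest, and the fast share is 14.3% in the dimmest and 1.20% in the brightest.

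A second probe set of the same gene gives an internal measure of spread on the same arrays. For 3572 genes with 2 or more members, the 2 brightest probe sets differed by a median of 1.18-fold in the percentage left at 6 h and 1.27-fold at 12 h, and 81.1% were within 2-fold at 12 h. Of 357 such genes that were fast at the first probe set, 221 (61.9%) were fast at the second, against 11.4% of all second probe sets. For slow genes it was 1217 of 1471 (82.7%, against 38.7%). Opposite classes were seen in 23 genes, 7 fast then slow and 16 slow then fast.

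Among fast genes, the one with the highest 0 h signal was Ccn1 (also named Cyr61), a secreted matricellular protein, with signals of 12628, 232 and 379 at 0, 6 and 12 h, or 1.84% and 3.0% left. Its other probe sets were likewise fast. Snai2, a transcriptional repressor of the epithelial programme, had 7337, 85.4 and 57.7, with 1.16% and 0.786% left. Id3, which sequesters bHLH transcription factors, had 8716, 627 and 815. All of these signals were lower at 6 h by more than 10-fold.

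Xbp1, a transcription factor of the unfolded protein response, had 8719, 602 and 677, and Zfp36l2, which binds AU-rich elements and promotes decay of mRNAs, had 8171, 717 and 815. Arf6, a small GTPase of membrane traffic, had 7786, 460.0 and 337. The percentages left in these 3 genes lay between 5.91% and 8.77% at 6 h and between 4.33% and 9.97% at 12 h. Kpna2, a nuclear import receptor, and S1pr3, a receptor for sphingosine 1-phosphate, instead lost signal in both intervals. Kpna2 had 9193, 1357 and 215 and S1pr3 had 7368, 1145 and 299.5. Hmgcs1, an enzyme of the mevalonate pathway, stayed nearer the class limit with 22.1% and 15.5% left.

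**Figure D3:**
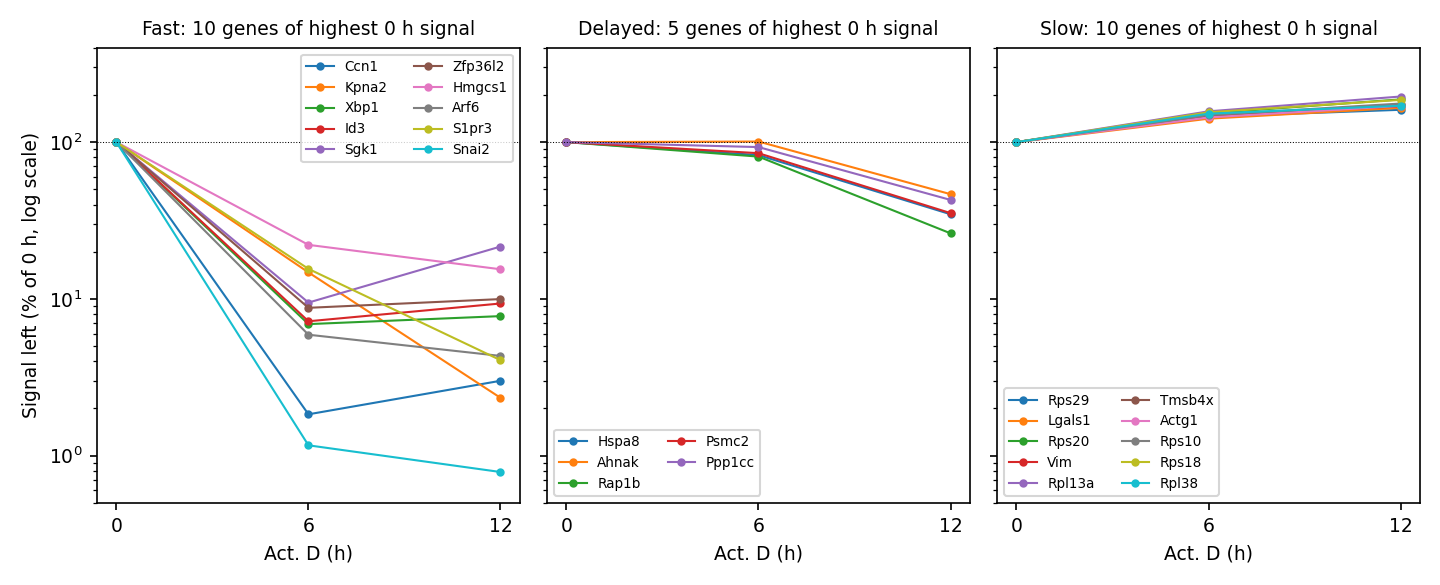
Percentage of the 0 h signal left (y, log scale) at 0, 6 and 12 h of Act. D (x) in control MEFs for the fast, delayed and slow genes with the highest 0 h signals, 1 line per gene and 1 array per time. Fast genes range from 1.16% to 22.1% left at 6 h, delayed genes from 80.9% to 101%, and slow genes from 141% to 157%.

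Negative feedback regulators of MAP kinase signalling held the lowest median of the lists described. All 13 of 13 members above the minimum (dual-specificity phosphatases, Sprouty and Spred genes and Errfi1) were fast, against 12.5% of all named genes, with a median of 7.94% at 6 h and 6.06% at 12 h. Dusp5, a nuclear phosphatase of ERK, had signals of 1228, 5.52 and 15.7, near background at both later times, so that at most 1.22% and at most 1.46% was left. Dusp16, which acts on JNK and p38, kept 5.16% and at most 3.22%. Spred1, an inhibitor of Ras signalling, had 2107, 167 and 65.3, and its 4 other probe sets above the minimum kept 7.06% to 41.3% at 6 h. The members with the most left at 12 h were Dusp6, a cytoplasmic ERK phosphatase, with 2974, 289 and 485, and Spry1, an inhibitor of receptor tyrosine kinase signalling, with 616, 95.4 and 117.

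Kruppel-like factors were fast in 8 of 11 genes, against 12.5% of all named genes, with a median of 11.6% at 6 h and 15.3% at 12 h. Klf9 had 3607, 303 and 194 at 0, 6 and 12 h, and its other probe sets above the minimum, 4 in number, kept 3.58% to 13.0% at 6 h. Klf2, a factor known from endothelium and T cells, had 939, 32.2 and 54.4. Klf3 kept 8.54% and 6.71% at its brightest probe set but 12.3% to 63.9% at 6 h at its 4 dimmer ones above the minimum. Klf7 was in neither class, with 49.4% and 50.1%, and nor was Klf11, with 60.7% and 67.3%. The ID, HES, HEY and Snail repressors had 4 of 7 fast members and a median of 14.7% and 21.7%, among them Snai1, a repressor related to Snai2, with 11.5% and 12.5%. Id1, an inhibitor of bHLH factors, kept 16.2% and 27.5%.

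Immediate-early genes, which are transcribed within minutes of a growth signal, were divided. Of 26 members, 10 were fast and 3 slow, against 12.5% and 35.7% of all named genes, and the median was 25.4% and 29.7%. The AP-1 subunit gene Fosl2 kept 4.31% and 4.94%, and Csrnp1, a nuclear factor, had 372, 8.40 and 10.9, near background after Act. D. Fos itself, often taken as a model of a short-lived mRNA, had 511, 571 and 1394, which is 112% and 273% of the 0 h signal. Egr2, a zinc finger transcription factor, had 213, 265 and 407, and its second probe set had 204, 143 and 317. In CNOT3-depleted MEFs the Fos percentages were 294% and 272%. The 0 h signals of Fos and Egr2 were low, and with 1 array per time the values above 100% have no replicate.

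Feedback genes of NF-kB were all at or under 50% at 12 h, 8 of 8 against 40.8% of all named genes, and 3 were fast. Nfkbia, which encodes the inhibitor that retains NF-kB in the cytoplasm, had 4351, 686 and 870.0, and Birc2, a ubiquitin ligase of TNF receptor signalling, had 655, 102 and 146. Among 7 cytokine and related genes above the minimum, 1 was fast (14.3%, against 12.5% of all named genes). Cxcl12, a chemokine of stromal cells, had 9634, 16422 and 23359.9, and its second probe set kept 113% and 116%. Ptgs2, the inducible cyclooxygenase, had 7781, 11386 and 17647, and a second probe set kept 145% and 237%. Vegfa, an angiogenic growth factor, kept 16.5% and 28.9%.

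In SMAD, BMP and TGF-beta signalling 6 of 19 genes were fast, against 12.5% of all named genes, and the median was 39.9% and 28.1%. Smad6, an inhibitory SMAD, had 1459, 80.0 and 29.2, and Smad1, an effector of BMP receptors, had 1937, 90.7 and 103. The ligand gene Tgfb3 was slow, with 140.1% and 187%. Of the circadian clock genes 3 of 8 were fast, against the same 12.5%. Bhlhe40, a clock repressor, had 638, 37.1 and 13.4, the last near background. Arntl, the partner of CLOCK, kept 8.17% and 8.67%, and Clock itself kept 88.0% and 65.3%.

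The largest list was that of genes named Zfp, most of which encode zinc finger transcription factors. Of 158 members 73 were fast and 9 slow, against 12.5% and 35.7% of all named genes. At 12 h 130 were at or under 50%, against 40.8% of all named genes. The median was 23.2% at 6 h and 23.3% at 12 h. Zfp770 had signals of 824, 20.3 and 5.59 and Zfp748 had 271, 3.75 and 1.90, both near background at 12 h. At the other end Zfp365 kept 138% and 189% and Zfp931 128% and 179%. F-box genes encode substrate receptors of ubiquitin ligases. They had 12 of 38 fast members, against 12.5% of all named genes, and a median of 50.1% and 36.2%. Fbxo34 had 599, 4.38 and 6.49 and Fbxo32, a ligase of muscle atrophy, had 453, 46.6 and 6.67, both near background at 12 h.

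A rebound, with at most 50% left at 6 h and a 12 h signal at least 2 times the 6 h signal, was met by 99 genes (1.13%). Sgk1, a serum- and glucocorticoid-induced kinase, had 8228, 779 and 1775. Cebpb, a bZIP transcription factor, had 3487, 77.4 and 157 at its brightest probe set, while its second probe set had 865, 17.9 and 18.3 and did not meet the rule. Spry2, an inhibitor of receptor tyrosine kinase signalling, had 1480.5, 56.6 and 148. Against the ribosomal protein genes the median rebound gene changed by -4.30 (log2) and then by 1.14, a fall and a rise that the rule requires. All of the later signals of these 3 genes remained below 25% of 0 h. In CNOT3-depleted MEFs Sgk1 kept 20.2% and 15.3% and Cebpb 24.9% and 14.7%, without a higher value at 12 h.

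Another 757 genes (8.66%) had at most 50% left at 6 h and then stayed level, the lower of their 6 h and 12 h signals being at least 0.8 times the higher. Their median was 23.5% at 6 h and 23.1% at 12 h, and 10 of them were near background at both times.

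At the slow end the genes with the highest 0 h signals encoded ribosomal proteins, cytoskeletal proteins and a lectin. Rps29 had signals of 33973, 49376 and 54623, Lgals1, which encodes galectin-1, had 32659.6, 46074 and 54045, and Vim, the intermediate filament protein of fibroblasts, had 29519, 43846 and 49870.2. Tmsb4x, which binds actin monomers, had 29422, 43109 and 51056 and Actg1, a cytoplasmic actin, had 29024, 41716 and 49399. The 10 slow genes named by this rule lay between 141% and 157% at 6 h and between 161% and 195% at 12 h, all close to the ribosomal protein median.

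Of the cytosolic ribosomal protein genes 39 of 44 were slow, against 35.7% of all named genes. Their middle 50% lay between 170% and 188% at 12 h. Rpl13a had 29514, 46393 and 57671, Rps20 had 29590.0, 45169 and 55419.9 and Rps18 had 28277, 43837 and 52580.2. The exceptions included Rpl12, with 1378, 351 and 532, and the paralog Rpl39l, with 1633, 1749.8 and 1279.5. Ribosomal protein genes have many near-identical pseudogenes, so single probe sets of this family are uncertain. Such mRNAs are known for a pyrimidine tract at their 5′ end. For that reason the start regions of 4 slow members that hold the letters CTTTC there are shown, as examples only. Each runs from 15 bases before the annotated start to 15 bases from it on (RefSeq, GRCm38.p6), with CTTTC in capitals.
Rpl13a: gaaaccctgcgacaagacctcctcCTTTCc
Rps10: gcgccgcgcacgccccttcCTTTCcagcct
Rpl38: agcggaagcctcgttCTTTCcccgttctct
Rplp2: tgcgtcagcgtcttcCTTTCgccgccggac
They lie at chr7:45128731-45128760 (minus strand), chr17:27635230-27635259 (minus strand), chr11:114668565-114668594 (plus strand) and chr7:141447636-141447665 (plus strand). On the sense strand CTTTC was found in this window in 11 of 38 ribosomal protein genes with a listed promoter (28.9%), in 34 of 882 fast genes (3.85%), in 125 of 2557 slow genes (4.89%) and in 1286 of all 27025 genes (4.76%). The opposite strand was not counted, and a match is a description of letters only.

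Extracellular matrix genes, the main secretory product of fibroblasts, were mostly slow. All 22 of 22 matrix glycoprotein genes were slow, with a median of 147% and 184%, against 35.7% slow among all named genes. Of the collagen genes 20 of 22 were slow, with a median of 144% and 178%. The slow share was 82.7% of probe sets with a 0 h signal of 6400 or more, and the lists were not matched for signal. Postn, a matricellular protein, had 11029, 19833 and 24957, and Dcn, a small proteoglycan, had 1038, 2196 and 2829. Tnc, which encodes tenascin C, had 11148, 11754 and 12547, while another of its probe sets had 802, 49.1 and 36.1. Col7a1, the collagen of anchoring fibrils, was not slow, with 679, 618 and 664.

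All 24 of 24 lysosomal genes were slow, with a median of 169% at 6 h and 235% at 12 h, above that of the ribosomal protein genes. Ctsz, a cathepsin, had 7337, 12582 and 18609, and Psap, the precursor of saposins, had 5139, 9322 and 12962. Oxidative phosphorylation genes were slow in 63 of 69 cases with a median of 157% and 189%, and Atp5e, a subunit of ATP synthase, had 4800.0, 9153 and 13038. The complex I genes Ndufs3, with 102% and 54.0%, and Ndufs7, with 107% and 56.2%, were exceptions. Actin cytoskeleton genes were slow in 24 of 27 cases and annexins, which bind membranes in a calcium-dependent way, in 7 of 8. The slow share over all named genes was 35.7%. Among probe sets with a 0 h signal of 6400 or more it was 82.7%, and these lists were not matched for signal.

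Glycolysis genes were slow in 9 of 13 cases. Slc2a1, the glucose transporter GLUT1, had 3339.7, 1459 and 420.2, and Hk2, a hexokinase, had 1389.5, 353 and 192, whereas Pgam1, phosphoglycerate mutase, had 8249, 12189.8 and 17641. The list of ER chaperones and unfolded protein response was divided, with 14 of 24 slow members (58.3%) and 3 fast ones (12.5%). Over all named genes the slow share was 35.7% and the fast share 12.5%. The fast members were Xbp1 and the stress-induced genes Trib3, with 16.8% and 10.0%, and Chac1, with 10.0% and 12.5%. The chaperone Pdia4, a disulfide isomerase, kept 185% and 242%. In the mevalonate pathway Sqle, squalene epoxidase, kept 9.47% and 2.86% and Sc5d, a later enzyme of sterol synthesis, 128% and 167%.

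Delayed loss, with at least 75% left at 6 h and at most 50% at 12 h, was seen in 299 genes (3.42%). Hspa8, a constitutive HSP70 chaperone, had 25209, 20833 and 8739, and its 2 other probe sets closest in brightness kept 71.1% and 76.9% at 6 h and 29.7% and 32.1% at 12 h, while the dimmest kept 34.4% and 27.9%. Rap1b, a Ras-family GTPase, had 12330.4, 9970.1 and 3230.3, and its other probe sets kept 72.7% and 95.9% at 6 h and 20.7% and 57.2% at 12 h. Psmc2, an ATPase of the proteasome, had 11413, 9702 and 4024, with 82.1% and 31.1% left at its second probe set. Ppp1cc, a phosphatase subunit, had 11207, 10422 and 4796, but 43.4% and 15.2% were left at another probe set. Ahnak, a giant scaffold protein, kept 101% and 46.6%, and its other probe sets were below the minimum and did not show this loss. Relative to the ribosomal protein genes the median delayed gene changed by -0.86 (log2) and then by -1.27, the second fall being required by the rule.

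Genes of mitosis and the spindle had a median of 74.5% at 6 h and 30.5% at 12 h. Relative to the ribosomal protein genes, 24 of 32 had a lower log2 change in the second 6 h than in the first, against 32.6% of all named genes, and as deposited 25 of 32 did, against 57.6%. Of the 32 genes 4 were delayed by the definition above, against 3.42% of all named genes. Cenpf, a kinetochore protein, had 1079.9, 384 and 86.7. The kinases of mitotic entry Plk1, with 1135, 194 and 80.2, and Aurka, with 825, 182 and 73.8, were in the fast class. Ccnb2, a mitotic cyclin, was slow, with 147% and 154%, and so was Cenpa, the centromeric histone, with 154% and 144%.

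DNA replication genes had a median of 93.0% at 6 h and 67.6% at 12 h. Relative to the ribosomal protein genes, 25 of 35 had the lower log2 change in the second 6 h (32.6% of all named genes), and as deposited 29 did (57.6%). Cdc6, a licensing factor, had 574, 82.6 and 12.7, the last near background, and Gmnn, the inhibitor of licensing, had 1436, 617 and 157, whereas Rpa1, a single-strand binding protein, had 7113, 12532 and 14300.0. Proteasome genes had a median of 127% at 6 h and 113% at 12 h, and 22 of 35 were slow. The lower log2 change came in the second 6 h in 30 of them relative to the ribosomal protein genes and in 34 as deposited. Psmd7, a lid subunit, had 4023, 3222 and 1466, and a dimmer probe set of it kept 114% and 251%. Mitochondrial ribosomal protein genes kept 96.1% at 6 h and 62.3% at 12 h, below their cytosolic counterparts at both times. Slow members were 23 of 73 (31.5%, against 35.7% of all named genes).

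Splicing regulators of the SR family kept 76.4% at 6 h and 38.8% at 12 h. Clk1, a kinase of SR proteins, was fast with 2126, 222 and 219. Tra2b had 6062, 3527 and 1405, and Srsf10 had 3072, 807 and 545, although 3 dimmer probe sets of Srsf10 kept 92.5% to 106% at 6 h. Among G1 regulators the median was 78.4% and 55.8%. E2f3, a transcription factor of S phase entry, kept 7.30% and 10.8% and Cdkn1b, the inhibitor p27, 18.7% and 13.8%. Ccnd1, which encodes cyclin D1, had 8498, 13021 and 17687, and its other probe sets above the minimum kept 149% and 150% at 6 h. Over all named genes 3615 of 8741 had a higher value at 12 h than at 6 h as deposited, and 2112 had one relative to the ribosomal protein genes.

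**Figure D4:**
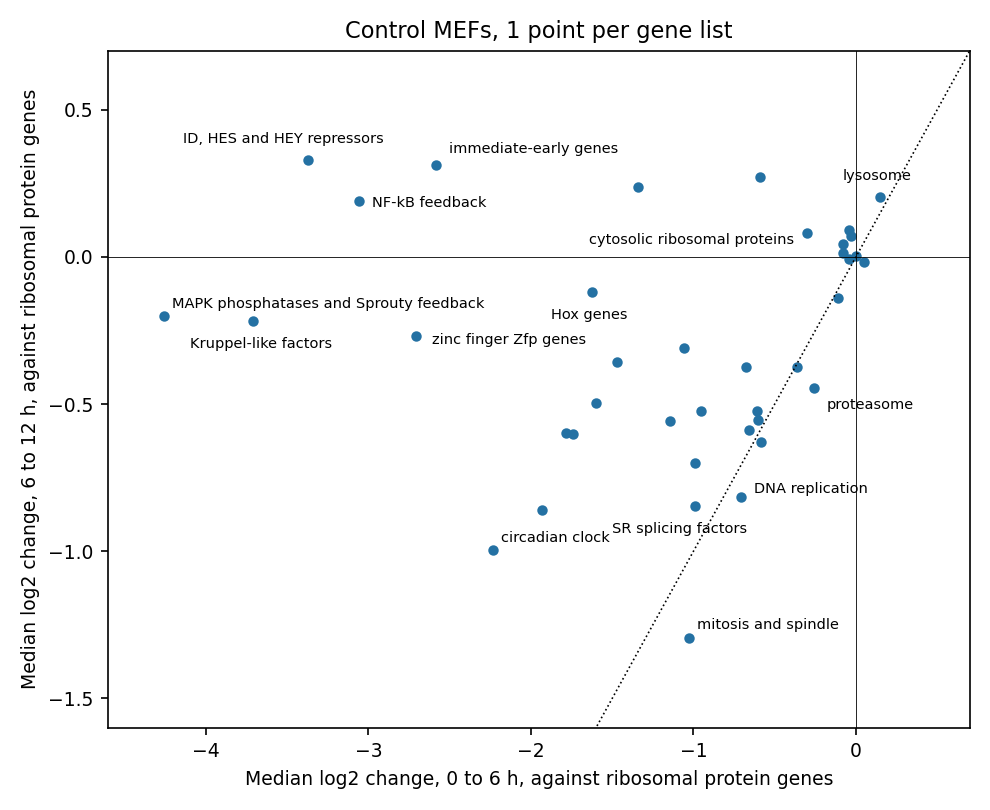
Median log2 change of each gene list relative to the ribosomal protein genes in the first 6 h (x) and in the second 6 h (y) of Act. D in control MEFs, 1 point per list with at least 5 members and 1 array per time. MAP kinase feedback genes lie at the far left (-4.26 and -0.20), mitosis genes lie below the dotted line of equal change (-1.03 and -1.29), and structural lists lie near 0.

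The mRNAs of the decay machinery itself were measured as well. Of the CCR4-NOT, PAN, TOB and BTG genes 5 of 16 were fast, against 12.5% of all named genes, and the median was 44.0% and 27.7%. Cnot11, a subunit of the complex, had 1302, 172 and 58.6, and Tob2, an antiproliferative adaptor of the complex, had 1698, 163 and 149.7, with 7.39% and 8.58% left at its second probe set and 48.2% and 40.4% at a dimmer one. Cnot6, a catalytic subunit, had 2960.4, 4132 and 4591. Cnot4, a ubiquitin ligase, kept 7.17% and 6.47% at its brightest probe set and 7.78% to 42.6% at 6 h at its 4 others above the minimum. Decapping, exosome and XRN genes had 3 of 29 fast members (10.3%, against 12.5% of all named genes) and a median of 76.5% and 49.8%. Exosc3, an exosome subunit, had 660.0, 157 and 37.9 and Lsm4, of the ring that activates decapping, had 3158, 5507 and 7205.

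The list of AU-rich element and miRNA pathway genes, Drosha among them, had a median of 73.1% and 65.0%, near that of all named genes (87.9% and 67.3%). Translation initiation factors had 1 of 39 fast and 22 of 39 slow members, against 12.5% and 35.7% of all named genes. The log2 ratio of their median at 12 h to that of all named genes was 0.68 as deposited but -0.30 after quantile normalization. Eif1a, which acts in start codon selection, had 6062, 1282 and 406 and Eif3k, a subunit of eIF3, had 6525, 11547 and 14135. Mediator subunits were fast in 5 of 29 cases (17.2%, against 12.5% of all named genes). Med17, the scaffold of the Mediator head module, had 979, 6.57 and 9.54, near background after Act. D. Hox genes, the positional transcription factors of the embryo, had a median of 49.3% and 56.3%. The 1 fast member of 17 (5.88%, against 12.5% of all named genes) was Hoxc4, with 432, 83.8 and 105.

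Other lists stood nearer the middle of all named genes. Rab GTPases, which direct vesicle traffic, had a median of 100.1% and 67.5%, with Rab9 at 2399, 351 and 167 and Rab2b at 566, 1191 and 1746. Ubiquitin-conjugating enzymes had 102% and 72.1%, with Ube2g1 at 3189, 467 and 214 and Ube2b at 4312, 6359.7 and 6732. A dimmer probe set of Ube2b kept 32.7% and 57.3%. Aminoacyl-tRNA synthetases, cytosolic and mitochondrial, had 99.5% and 75.9%, and the members with the least left, Pars2, Yars2 and Nars2, are mitochondrial enzymes. Yars2 kept 22.2% and 11.6%, whereas Kars, lysyl-tRNA synthetase, kept 146% and 181%.

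Noncoding RNAs differed widely. Neat1, the scaffold of paraspeckles, had 2453, 161 and 410.5, which meets the rebound rule. Gas5, a host of small nucleolar RNAs, had 8451, 13981 and 19426 at its brightest probe set and 8074, 13886 and 19403 at another, but 1849, 162 and 283 and 1743, 97.0 and 88.7 at the remaining pair. The 4 probe sets thus fell into opposite classes, slow for the brighter pair and fast for the dimmer pair. Snhg5, another host gene, had 2114, 484 and 742.

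Genes of death receptor signalling and necroptosis had 3 of 19 fast members (15.8%) and 2 of 19 slow members (10.5%), with a median of 45.3% and 36.5%. Over all named genes 12.5% were fast and 35.7% slow. Traf2, an adaptor of the TNF receptor, kept 11.1% and 11.3%, and Dapk1, a death-associated kinase, had 215, 70.7 and 18.0, the last near background. Ripk3, the kinase that drives necroptosis, had 1596, 1769 and 1612, so as deposited its mRNA met the slow rule by a small margin. The paper states that ripk3 was too low on the microarray in WT MEFs to judge a change. The deposited 0 h signal of 1596 in control MEFs was nevertheless well above the minimum used here. The paper measured this mRNA by qPCR instead, normalized to gapdh. After Act. D it reports a longer ripk3 half-life in CNOT3-depleted than in control MEFs, which implies loss in control MEFs. Relative to the ribosomal protein genes, 73.0% and 56.4% of the Ripk3 signal was left here. The slow call as deposited differs from that qPCR result and is uncertain. Of the other genes that were followed by qPCR in the study, Pik3c3, the class III PI3-kinase of autophagy, had 284, 49.1 and 19.4. Creb3, an ER-bound transcription factor, had 2657, 1194 and 805, with 75.8% and 59.7% left at its second probe set and 42.6% and 22.3% at a dimmer one. Its dimmest probe set, below the minimum, kept 83.5% and 155%. Cdkn1a, the cell cycle inhibitor p21, had 8319.6, 3952 and 2048 and kept 60.9% and 35.9% at a second probe set. Sirt5, a mitochondrial deacylase, kept 66.5% and 33.2% and Dvl2, of the Wnt pathway, 40.5% and 27.1%. Fbxo30 was fast, with 14.1% and 17.0%, and so was Zfp292, with 10.5% and 10.1%. Among p53 targets Sesn2, a stress-induced regulator of mTORC1, kept 7.37% and at most 4.30%, and Pmaip1, the BH3-only protein NOXA, kept 208% and 214%.

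Of the 14 fibroblast markers 11 were slow and 2 were fast, against 35.7% and 12.5% of all named genes. The fast ones were Twist1, a mesenchymal transcription factor, with 1324, 176 and 76.6, and Pdgfra, a growth factor receptor, with 1683, 281 and 136. Its other probe sets disagreed, with 185% and 286% left at one and 54.7% and 41.8% at the other, both with a 0 h signal near the minimum. Pdgfrb had 4136, 2266 and 1277. The summed signal of the 14 markers went from 146776 at 0 h to 209225 and 247919.

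**Figure D5:**
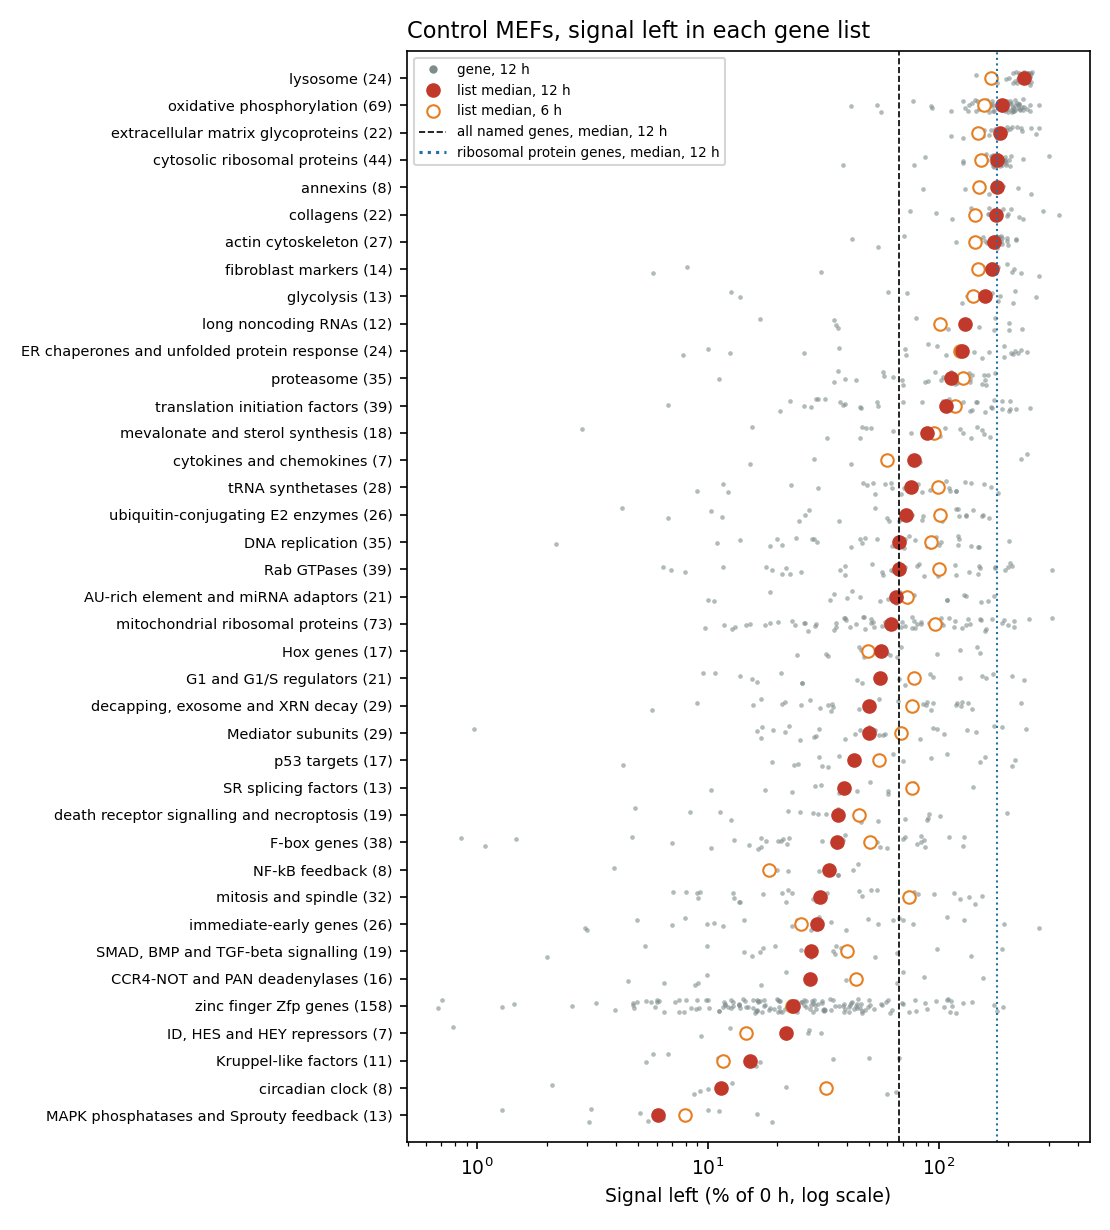
Percentage of the 0 h signal left (x, log scale) in control MEFs for gene lists with at least 5 members (y, number of members in brackets), 1 array per time and signals near background drawn as measured, with grey points for genes at 12 h, filled circles for list medians at 12 h and open circles for list medians at 6 h. The list medians at 12 h go from 6.06% for MAP kinase feedback genes to 235% for lysosomal genes, against 67.3% for all named genes (dashed line).

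The classes were then read in the arrays of CNOT3-depleted MEFs, which share no array with the control ratios. Cnot3, the gene removed there, had signals of 239.6, 128 and 82.9 there, against 436, 193 and 198 in the control arrays, and it is unknown whether its probe set lies in the deleted part. Of the 1975 fast probe sets 655 (33.2%) met the same rule there, against 5.52% of all members, and they made up 75.1% of the 872 probe sets that were fast in CNOT3-depleted MEFs. The median of the 1975 was 36.3% at 6 h and 26.7% at 12 h. Of the 5812 slow probe sets 4607 (79.3%) were slow again, against 42.9% of all members, and the median of the 5812 was 116% and 121%. As deposited, the cytosolic ribosomal protein genes kept a median of 109% and 115% there, against 152% and 179% in control MEFs. Percentages of both cultures are therefore not on a common scale. In all, 13 of the 1975 were slow in CNOT3-depleted MEFs. With 1 array per condition these differences between the cultures were not tested.

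By named gene, 270 of the 1090 fast genes (24.8%) were also fast in CNOT3-depleted MEFs, where 3.78% of all named genes were fast and 42.8% were slow. The corresponding count was 56 of 73 for Zfp genes, 7 of 10 for immediate-early genes, 7 of 13 for MAP kinase feedback genes and 3 of 8 for Kruppel-like factors. As deposited, the Zfp list had a median of 27.9% and 21.2% in CNOT3-depleted MEFs, against 23.2% and 23.3% in control MEFs. For Kruppel-like factors these medians were 43.5% and 28.6% against 11.6% and 15.3%. Since the scales of the cultures differ, the close values of the Zfp list do not show that its loss was equal. Klf3 kept 43.9% and 41.9% in CNOT3-depleted MEFs, and Klf9 kept 9.87% and 3.23%. Kpna2, fast in control MEFs, kept 97.2% and 83.6%, and Hmgcs1 kept 94.3% and 93.2%. Snai2 kept 6.65% and 3.37% and Nfkbia kept 11.3% and 9.94%. Whether these lists differ in this respect was not tested.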

How the data were processed

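Biotin-labelled cRNA, made from total RNA of both kinds of MEFs at each of the 3 times of Act. D treatment, was hybridized to Affymetrix GeneChips for the mouse genome, 1 array per condition. The deposited intensity values are linear MAS5 signals per probe set. Which MAS5 version and scaling target were used is not given in the sources. The trimmed mean without the outer 2% was between 494 and 497 in every array.

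Of 45037 probe sets, the platform annotation names 1 gene for 34945, several for 932 and none for 9160, and 34741 identifiers were found in the RefSeq gene list of GRCm38.p6, which served only for names. Probe sets with several genes were not named. No signal was under the floor of 1, and the signals were not rescaled. The percentage left is 100 times the signal at 6 or 12 h over that at 0 h. Each gene is represented by 1 probe set, that of highest mean log2 signal in all 6 arrays together. Near background means below the 25th percentile of the signals on an array, and percentages left are then given as bounds. Values relative to the ribosomal protein genes were divided by their median percentage left, from 44 genes. Promoter sequences came from RefSeq (27025 genes, 300 bases each), and 7187 of the 8741 named genes had one.

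The members and the 45 gene lists were chosen with earlier results of these data known. The genes named are the 10 fast, 10 slow, 5 delayed and 5 rebound genes with the highest 0 h signal, in each list the 3 with the least and the 2 with the most left at 12 h, and those followed by qPCR, of which Ripk1 is not named by the annotation used and was not analysed here. Cnot3, the targeted gene, was added as a check. The text names fewer than the rule gives. No test was run and no error or p-value is given, since each condition has 1 array, and the precision is limited by the number of arrays. The class rules were run on simulated data with 8%, 15%, 70% or 150% left at both times and a log2 noise SD of 0.25. These values lie away from the class limits, so the run does not measure how well real probe sets are classed. Alternatives changed the minimum, the scaling, the thresholds, the probe set of each gene and the near-background floor. Python 3.11.15, pandas 2.3.3 and numpy 2.4.6 were used.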

Additional observations from a re-analysis of the deposited data

Results flagged for a closer look

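In 8 of the 40 gene lists with at least 5 members the median percentage left lay on one side of 100% at both times in control MEFs and on the other side at both times in CNOT3-depleted MEFs. These differences between the cultures were not tested, since each condition has 1 array. In control MEFs the median at 12 h was 30.5% for mitosis and spindle genes, 38.8% for SR splicing factors, 55.8% for G1 and G1/S regulators, 62.3% for mitochondrial ribosomal proteins, 67.6% for DNA replication genes, 75.9% for tRNA synthetases and 88.7% for mevalonate and sterol synthesis genes. The medians at 12 h in CNOT3-depleted MEFs were 111%, 105%, 102%, 113%, 114%, 113% and 121% in the same order. Some medians at 6 h lay close to 100%, such as 99.5% for tRNA synthetases in control MEFs. For G1 and G1/S regulators the median at 6 h was 100.1% in CNOT3-depleted MEFs. Long noncoding RNAs went the other way, with 130% in control MEFs at 12 h and 56.4% after CNOT3 depletion. Where each gene was represented by the median of its probe sets rather than by 1 of them, their control value at 12 h was 99.8%, under 100%. The level of 100% depends on how the arrays are scaled, and relative to the ribosomal protein genes the control medians of all 8 lists were below 100% at both times. As deposited, the ribosomal protein genes kept a median of 152% and 179% in control MEFs and of 109% and 115% after CNOT3 depletion. The level of 100% is therefore not the same in both cultures.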

How the results depend on the processing

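No paired analysis was possible because the labels give 1 sample per condition and the results come from no test. The fast count, 1975 as reported, was 1269 with each array divided by its median, 1158 after quantile normalization and 3424 with each array divided by its ribosomal protein probe sets. It was 3331 at 12 h alone, 441 with at most 10% left and 4297 with at most 50% left. The slow count, 5812 as reported, was 1614 with ribosomal protein scaling, 3476 without x, s and a probe sets (of 10705 members) and 2240 with at least 150% left. The median left at 6 h was 125.6% with each array divided by its median, 104.8% after quantile normalization and 58.3% with ribosomal protein scaling, and at 12 h it was 96.2% and 38.6% in the latter pair. These alternatives change the scale, the members or the threshold by construction, and no further cause was tested. The scalings moved the median log2 ratio over members by 0.50, 0.48 and -0.61 at 6 h and by 0.32, 0.54 and -0.89 at 12 h, in the order array median, quantile and ribosomal protein.

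The other alternatives for the counts and medians stayed within 1.5-fold or within the spread between probe sets. Of 40 gene lists, 21 had a median at 12 h under that of all named genes, and 21 to 24 did under the alternatives. The side changed, as log2 ratios to all named genes, for cytokines (0.21 against -0.56 at 6 h) and mitochondrial ribosomal proteins (-0.11 against 0.13 at 6 h). After quantile normalization it changed for DNA replication (0.0064 against -0.15), AU-rich element adaptors (-0.05 against 0.14), proteasome (0.75 against -0.058), Hox genes (-0.26 against 0.089), initiation factors (0.68 against -0.30), Rab GTPases (0.0044 against -0.071, and -0.064 at the probe set with the highest 0 h signal) and ubiquitin-conjugating enzymes (0.10 against -0.26). Without a change of side, 13 lists moved by more than the spread between probe sets after quantile normalization, and 20 did at 6 h. After quantile normalization the slow lists among them came nearer to all named genes. Fibroblast markers had 1.33 against 0.090, actin cytoskeleton 1.36 against 0.14 and cytosolic ribosomal proteins 1.41 against 0.17. The ID, HES and HEY repressors and the SR splicing factors moved further away. The cause was not tested. Ratios to all named genes cannot change under a scaling by 1 factor per array. Signals near background limit what can be said of fast genes, since only a bound is measured there.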
